A study of Mus musculus with 32 samples.

Results

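A set of 8 genes of intermediate filaments was followed in mouse kidney after cisplatin, namely the keratins Krt7, Krt8, Krt12, Krt18, Krt19, Krt20 and Krt76 and the vimentin gene Vim. They were chosen by name, with their changes in these kidneys already known, and each was read from the brightest probe whose transcript accession carries its symbol. All 8 passed the filter on dim probes, out of 23737 genes and transcripts tested and 32451 on the array. Levels are log2 of the array's processed signal relative to the 75th percentile of that array, so that 0 marks a probe as bright as that percentile. The kidneys came from male mice aged 12 to 16 weeks, either miR-155-/- (the B6.Cg-Mir155tm1.1Rsky/J line, a null allele of the microRNA miR-155 on a C57BL/6 background) or C57BL/6 wild type. The line came originally from The Jackson Laboratory and the wild type mice, matched for age and weight, from Charles River Laboratories, so genotype and supplier cannot be told apart. In each genotype, 4 mice were taken at 0 h after saline and 4 each at 24, 48 and 72 h after a single cisplatin dose of 20 mg/kg, a chemotherapy agent that forms DNA adducts and injures kidney tubules. The whole kidney was homogenised and each animal had 1 array, 32 in all.

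Intermediate filaments are rope-like cytoskeletal polymers that give cells mechanical strength. Keratins, the filament proteins of epithelia, polymerise only as pairs of a type I (acidic) and a type II (basic) chain, whereas vimentin, a type III protein of mesenchymal, endothelial and blood cells, forms filaments alone. Krt8 (type II) and Krt18 (type I) are the basic pair of simple epithelia such as kidney tubules, and Krt7 (type II) and Krt19 (type I) are best known from ducts and the lining of the urinary tract. Krt20 (type I) is a keratin of gut and urothelial surface cells, Krt12 (type I) of the corneal epithelium and Krt76 (type II) of the oral epithelium. In injured kidneys, keratins and vimentin are known as proteins that tubule cells make more of during repair.

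Promoter windows of Krt20, Krt76, Krt8 and Krt18 are shown because the first 2 genes are among the 3 with the widest gaps between cisplatin and saline kidneys and the other 2 are the simple epithelial pair. Each holds the 250 bases before the transcript start and the 20 bases after it, from RefSeq on GRCm38.p6, 5′ to 3′ on the gene's strand. Capitals mark the letters TATAAA, the TATA box. The windows lie at chr11:99438134-99438403 (minus strand), chr15:101892901-101893170 (minus strand), chr15:102004323-102004592 (minus strand) and chr15:102027966-102028235 (plus strand).
Krt20: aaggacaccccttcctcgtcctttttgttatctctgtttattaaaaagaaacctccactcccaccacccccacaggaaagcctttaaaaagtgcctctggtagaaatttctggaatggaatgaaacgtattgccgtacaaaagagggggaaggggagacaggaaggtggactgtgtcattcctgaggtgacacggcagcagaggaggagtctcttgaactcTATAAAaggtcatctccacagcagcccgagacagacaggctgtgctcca
Krt76: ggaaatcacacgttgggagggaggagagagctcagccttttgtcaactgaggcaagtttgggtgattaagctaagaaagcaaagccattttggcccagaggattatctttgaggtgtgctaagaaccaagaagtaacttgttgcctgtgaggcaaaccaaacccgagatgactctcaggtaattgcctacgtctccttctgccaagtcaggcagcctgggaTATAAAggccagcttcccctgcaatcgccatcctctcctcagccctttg
Krt8: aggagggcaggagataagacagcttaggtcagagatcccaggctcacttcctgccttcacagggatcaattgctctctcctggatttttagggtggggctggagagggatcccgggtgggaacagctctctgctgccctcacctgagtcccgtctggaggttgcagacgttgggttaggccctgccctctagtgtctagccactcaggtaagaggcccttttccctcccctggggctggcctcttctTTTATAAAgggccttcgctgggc
Krt18: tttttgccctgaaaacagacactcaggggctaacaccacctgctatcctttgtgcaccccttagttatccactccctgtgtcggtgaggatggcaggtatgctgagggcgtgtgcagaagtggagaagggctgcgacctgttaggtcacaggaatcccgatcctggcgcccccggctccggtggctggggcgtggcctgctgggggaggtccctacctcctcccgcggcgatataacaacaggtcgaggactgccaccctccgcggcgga
In Krt20 and Krt76 the TATAAA match began 29 bases before the start, and in Krt12 it lay at the same distance. In Vim it began 32 bases before the start. The Krt8 window held 2 overlapping matches, on opposite strands, that began 3 and 1 bases before the start. Krt18 and Krt7 had none in the window, and 12.9% of 32851 promoter windows of this length held at least 1 match on either strand. The AP-1 motif TGANTCA was found in none of the 7 members with a window (7.23% of all windows), and the GC box GGGCGG only in Krt7, with 4 matches (34.1% of all windows). These matches describe the letters of the windows and say nothing of which factors bind there. Krt12 and Krt20 are direct neighbours on chromosome 11, Krt8 and Krt18 lie on chromosome 15 with 2 genes between them, and Krt76 lies 3 genes away from Krt8. Krt7 (chromosome 15), Krt19 (chromosome 11) and Vim (chromosome 2) have no member that close.

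On the arrays, between 67.9% and 81.7% of the probes were well above background and no spot was saturated. Arrays of a group correlated at 0.957 to 0.995 over the tested genes. Replicate 3 of the miR-155-/- group at 24 h and replicate 3 of the miR-155-/- group at 48 h lay highest of all arrays on the first principal component (87.8 and 121). Differences of the 8 genes that their absence moves by over 1.5-fold are also given without them, and those of other genes are not. The miR-155-/- group at 24 h split into pairs on that component, with replicate 4 at 70.6 near replicate 3 and replicates 1 and 2 at 18.4 and 20.1. Leaving out replicate 4 alone moved no difference of the 8 genes by over 1.5-fold and changed no call. The knockout could not be checked here, since no probe was matched to miR-155 or its host transcript. The injury markers rose: of 14 tubular injury genes, 10, 12 and 14 passed the test upward at 24, 48 and 72 h in miR-155-/- kidneys and 7, 10 and 11 in wild type kidneys. Havcr1, which encodes the injury protein Kim-1, averaged 4.16 ± 0.36 at 72 h in miR-155-/- kidneys and 2.69 ± 0.76 in wild type kidneys (log2 level, SD, n = 4 each). Lcn2, the secreted lipocalin NGAL, averaged 4.91 ± 0.19 and 3.94 ± 0.46 in the same groups, and neither gene passed the test between genotypes (adjusted p = 0.369 and 0.683, limma). A whole-kidney array does not show in which cells a transcript lies, so a change in the number of cells of a type and a change in RNA per cell cannot be told apart, and a place in the tubules is not shown for any of the 8 genes.

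Cisplatin against saline was the comparison known when the genes were chosen, so their differences are given as a description without a test. Krt8 was higher after cisplatin in both genotypes. In miR-155-/- kidneys its level was 2.13, 2.20, 2.04 and 2.14 at 0 h, 3.08, 3.38, 4.37 and 4.11 at 24 h, 3.57, 3.26, 4.82 and 3.83 at 48 h, and 4.13, 4.04, 4.26 and 3.78 at 72 h. Wild type kidneys stood at 2.30, 2.07, 2.21 and 2.44 at 0 h, 3.55, 4.06, 3.29 and 3.87 at 24 h, 3.37, 3.85, 3.04 and 3.07 at 48 h, and 2.90, 3.40, 3.24 and 3.52 at 72 h. Every treated kidney of either genotype lay above every saline kidney. The log2 difference from saline was 1.61, 1.74 and 1.92 (each ± 0.26, SE) at 24, 48 and 72 h in miR-155-/- kidneys and 1.44, 1.08 and 1.01 (each ± 0.26) in wild type kidneys.

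Krt18, the partner of Krt8, stood clear of saline in miR-155-/- kidneys and overlapped it in wild type kidneys. Its level was 2.45, 2.10, 2.78 and 1.51 at 0 h in miR-155-/- kidneys, 2.86, 3.14, 5.13 and 3.83 at 24 h, 3.10, 3.28, 5.32 and 4.00 at 48 h, and 4.62, 3.90, 4.41 and 4.18 at 72 h. Wild type kidneys showed 3.31, 1.75, 2.46 and 2.78 at 0 h, 2.68, 2.92, 2.69 and 3.36 at 24 h, 3.73, 3.14, 2.72 and 3.18 at 48 h, and 3.15, 3.50, 3.26 and 3.31 at 72 h. In miR-155-/- the treated kidneys lay above the saline kidneys at all 3 times, while in wild type they overlapped at each, and wild type saline replicate 1 was the highest saline kidney. The difference from saline was 1.53, 1.71 and 2.06 (± 0.42) at 24, 48 and 72 h in miR-155-/- kidneys and 0.33, 0.62 and 0.73 (± 0.42) in wild type kidneys. The highest miR-155-/- values at 24 and 48 h, 5.13 and 5.32, came from the 2 arrays highest on the first principal component.

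Krt19, a type I keratin of ducts, had its highest levels in miR-155-/- kidneys at 72 h. It stood at -1.21, -2.40, -0.91 and -3.57 at 0 h, -2.41, -1.40, 0.03 and -0.92 at 24 h, -1.03, -0.72, 0.87 and 0.38 at 48 h, and 1.0, 0.46, 0.58 and 0.46 at 72 h in this genotype. Wild type kidneys had 0.30, -2.21, -1.11 and -0.48 at 0 h, -1.59, -0.92, -1.01 and -0.45 at 24 h, -0.51, -0.14, -1.10 and -0.28 at 48 h, and -0.75, -0.02, 0.07 and 0.15 at 72 h. The saline kidneys of both genotypes spread over more than the treated ones at 72 h, and in wild type the treated kidneys overlapped the saline kidneys at each time. The difference from saline was 0.85, 1.90 and 2.65 (± 0.53) in miR-155-/- kidneys at 24, 48 and 72 h and -0.12, 0.37 and 0.74 (± 0.53) in wild type kidneys. Among saline kidneys the summed urothelium markers moved with Krt19: miR-155-/- replicate 4 was lowest of its group in both (-3.57 for Krt19, and a sum of 489.9% of the array's 75th percentile), wild type replicate 1 was highest of its group (0.30 and 1322%), and wild type replicate 2 was lowest (-2.21 and 498%). Their part in the result was not tested.

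Krt7, the type II keratin of ducts, moved least of the keratins. Its group means lay between 1.16 and 1.62 in miR-155-/- kidneys and between 1.10 and 1.28 in wild type kidneys. The difference from saline was 0.46, 0.24 and 0.38 (± 0.14) at 24, 48 and 72 h in miR-155-/- kidneys and 0.08, -0.09 and -0.10 (± 0.14) in wild type kidneys. Cisplatin and saline kidneys overlapped at all 3 times in both genotypes.

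**Figure D1:**
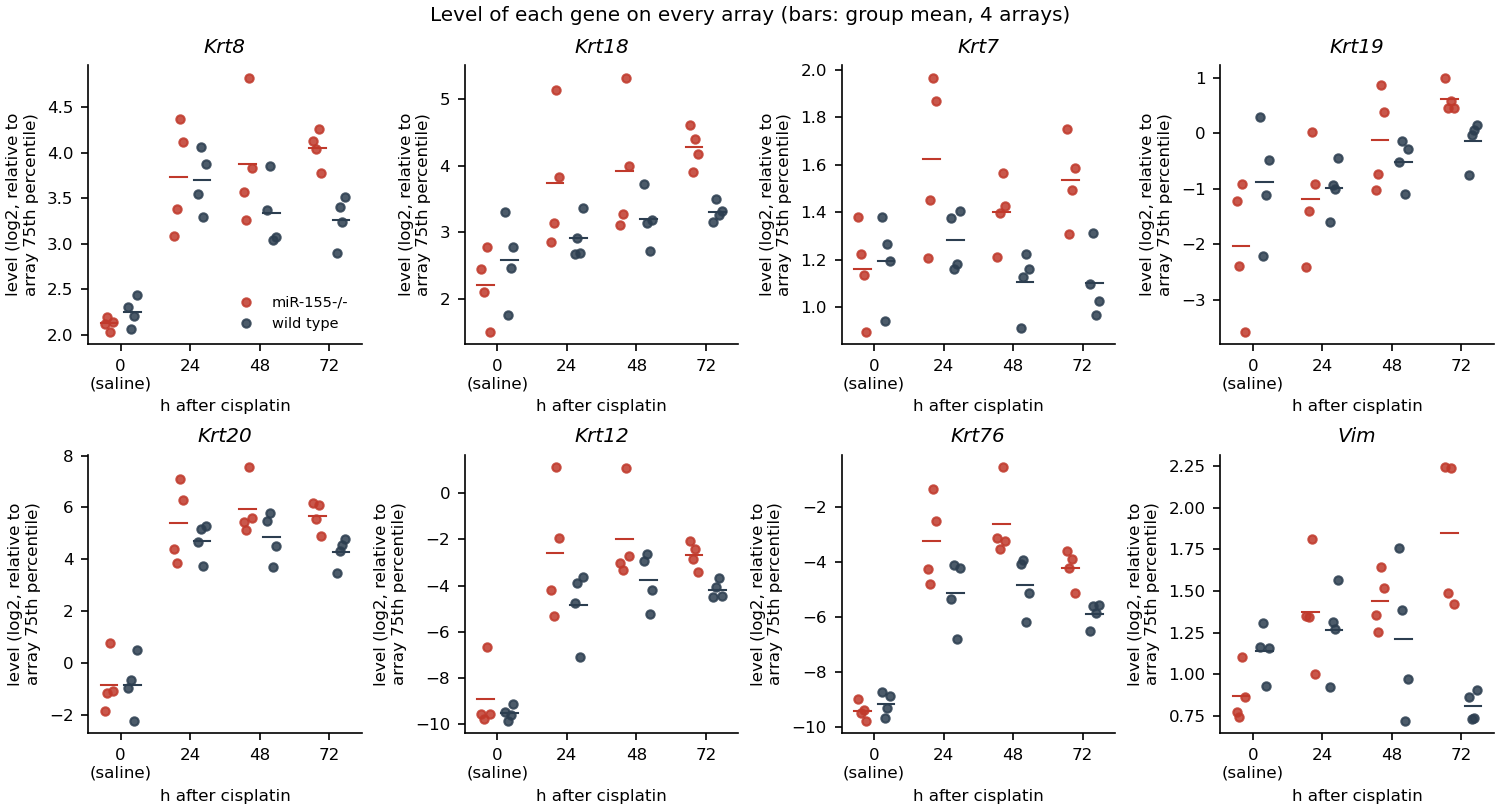
Level of the 8 genes on each of the 32 arrays, as log2 relative to the 75th percentile of the array, against hours after cisplatin (0 h is saline), with miR-155-/- in red and wild type in blue; points are single animals and bars are group means of 4. Within each genotype the treated kidneys lie above the saline kidneys for Krt8, Krt20, Krt12 and Krt76, and at 72 h the miR-155-/- kidneys lie above the wild type kidneys for all but Krt7.

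Krt20, Krt12 and Krt76, keratins of surface epithelia, showed the widest gaps. Krt20 stood at -1.85, -1.17, 0.77 and -1.07 at 0 h, 4.41, 3.85, 7.11 and 6.28 at 24 h, 5.44, 5.14, 7.55 and 5.61 at 48 h, and 6.16, 5.55, 6.10 and 4.91 at 72 h in miR-155-/- kidneys. The wild type values were -0.94, -0.65, -2.22 and 0.51 at 0 h, 4.68, 5.18, 3.73 and 5.30 at 24 h, 5.48, 5.80, 3.70 and 4.53 at 48 h, and 3.49, 4.32, 4.54 and 4.79 at 72 h. The lowest treated kidney was thus far above the highest saline kidney in both genotypes. The difference from saline was 6.24, 6.76 and 6.51 (± 0.66) in miR-155-/- kidneys, which is 75.8-, 109- and 91.2-fold, and 5.55, 5.70 and 5.11 (± 0.66) in wild type kidneys, which is 46.8-, 52.1- and 34.5-fold.

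Krt12 was near the limit of detection in saline kidneys, where its probe was well above background on 1 of 4 miR-155-/- arrays and on 0 of 4 wild type arrays. It stood at -9.56, -9.78, -6.67 and -9.55 at 0 h, -4.18, -5.30, 1.13 and -1.95 at 24 h, -3.03, -3.33, 1.09 and -2.69 at 48 h, and -2.08, -2.85, -2.40 and -3.41 at 72 h in miR-155-/- kidneys. For wild type kidneys the levels were -9.46, -9.84, -9.58 and -9.12 at 0 h, -4.73, -3.88, -7.06 and -3.62 at 24 h, -2.93, -2.63, -5.23 and -4.18 at 48 h, and -4.51, -4.06, -3.67 and -4.44 at 72 h. The lone saline kidney above background, miR-155-/- replicate 3 at -6.67, was also the saline kidney with the highest Krt20 level (0.77). Only bounds can therefore be given, which set the cisplatin mean against the lowest signal well above background on each saline array that did not measure the probe. By this brighter probe, Krt12 was at least 29.9-, 44.7- and 27.7-fold higher than saline at 24, 48 and 72 h in miR-155-/- kidneys and at least 7.16-, 15.1- and 11.3-fold higher in wild type kidneys. Without replicate 3 of the miR-155-/- groups at 24 and 48 h, the first 2 of these came to at least 12.7- and 21.9-fold. The dimmer probe of Krt12 was well above background on 3 or more of 4 arrays at 24 and 48 h in both genotypes. At 72 h it was so on 3 of 4 miR-155-/- and 2 of 4 wild type arrays, and in saline on none. Its means at 0, 24, 48 and 72 h were -8.89, -5.13, -4.57 and -5.96 in miR-155-/- kidneys. In wild type kidneys they were -8.996, -6.47, -6.37 and -7.07. By these means its gap from saline was narrower than the brighter probe's bound at each time in both genotypes. The bounds thus hold for the brighter probe only.

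Krt76 was not well above background on any saline array of either genotype and was well above it on all 24 treated arrays. Its level was -4.26, -4.79, -1.32 and -2.51 at 24 h, -3.11, -3.53, -0.54 and -3.23 at 48 h, and -3.60, -4.22, -3.88 and -5.13 at 72 h in miR-155-/- kidneys. Wild type kidneys were at -5.35, -4.11, -6.80 and -4.22 at 24 h, -4.07, -3.92, -6.18 and -5.13 at 48 h, and -6.50, -5.61, -5.87 and -5.55 at 72 h. It was at least 22.6-, 34.6- and 11.4-fold higher than saline in miR-155-/- kidneys at 24, 48 and 72 h, and at least 5.82-, 7.14- and 3.43-fold higher in wild type kidneys. Without replicate 3 of the miR-155-/- groups at 24 and 48 h, the first 2 of these came to at least 14.5- and 21.5-fold. A normexp background correction, which adds an offset to every spot, gave fitted differences from saline of 2.40, 2.61 and 2.38 for Krt12 and 1.63, 2.13 and 1.42 for Krt76 in miR-155-/- kidneys. In wild type kidneys it gave 1.34, 1.49 and 1.12 for Krt12 and 1.12, 0.68 and 0.23 for Krt76. Under it, limma called none of the 6 wild type values (adjusted p 0.207 to 0.996), nor Krt76 at 72 h in miR-155-/- kidneys (0.0974).

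The group means of Vim, the vimentin gene, stayed within 1 log2 unit of saline in both genotypes. Its level was 0.78, 0.75, 1.10 and 0.87 at 0 h, 1.35, 1.34, 1.81 and 1.0 at 24 h, 1.35, 1.25, 1.64 and 1.52 at 48 h, and 2.24, 1.49, 2.24 and 1.42 at 72 h in miR-155-/- kidneys. Wild type levels of Vim were 1.16, 1.31, 0.93 and 1.16 at 0 h, 0.92, 1.31, 1.27 and 1.56 at 24 h, 1.76, 1.39, 0.72 and 0.97 at 48 h, and 0.86, 0.73, 0.74 and 0.91 at 72 h. In miR-155-/- the treated kidneys lay above the saline kidneys at 48 and 72 h, and in wild type the 72 h kidneys all lay below the saline kidneys. The difference from saline was 0.50, 0.57 and 0.97 (± 0.20) in miR-155-/- kidneys and 0.13, 0.07 and -0.33 (± 0.20) in wild type kidneys.

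**Figure D2:**
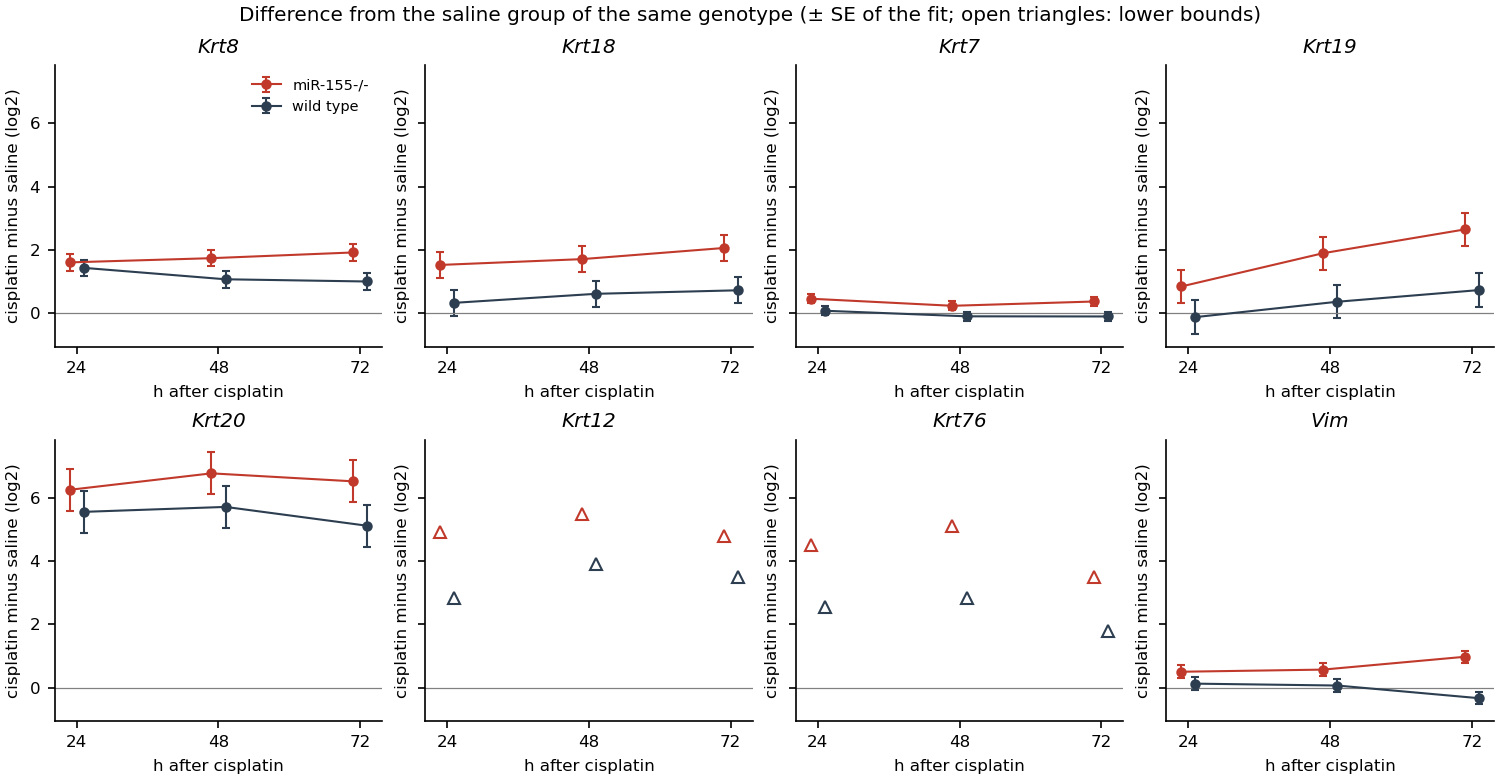
Difference from the saline group of the same genotype (log2, y axis) for the 8 genes at 24, 48 and 72 h after cisplatin, with miR-155-/- in red and wild type in blue; error bars are SE of the fit with 4 arrays per group, and open triangles are lower bounds for Krt12 and Krt76, whose probes were not well above background on most or all saline arrays. Krt20 lies between 5.11 and 6.76, the bounds (Krt12 by its brighter probe) between 1.78 and 5.48, and the other 5 genes between -0.33 and 2.65.

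By the fit over all genes, 7, 7 and 8 of the 8 were called higher at 24, 48 and 72 h in miR-155-/- kidneys, where 26.6%, 22.7% and 17.7% of all tested genes were. Vim lost its call at 24 h (0.36) and 48 h (0.50) without the 2 arrays highest on the first principal component. Of 19 alternatives, Vim was called in 8 at 24 h and 14 at 48 h, and Krt7 in 17 at 24 h and 13 at 72 h. In wild type kidneys Krt8, Krt12, Krt20 and Krt76 were called higher at each time, 4 of the 8, where 21.0%, 12.2% and 12.5% of all tested genes were. Cisplatin and saline kidneys did not overlap, with cisplatin higher, for 5, 6 and 7 members in miR-155-/- (21.9%, 19.6% and 19.7% of all tested genes) and for 4 members at each time in wild type (25.4%, 17.3% and 19.3%). In wild type at 72 h, Vim was lower without overlap, as were 20.8% of all tested genes. Nothing is read from these counts, since the genes were chosen on this comparison. Ordered by level over the 8 groups, neighbouring groups overlapped in every case except between wild type at 72 h and wild type saline for Krt8, Krt20 and Krt76. For Krt12 the lowest cisplatin group was wild type at 24 h, whose replicate 3 at -7.06 lay below the saline kidney at -6.67.

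Between genotypes, Vim was the member that passed the test, at 72 h. It was 1.04 ± 0.20 (SE, 2.05-fold) higher in miR-155-/- than in wild type kidneys (adjusted p = 0.0087), with all 4 miR-155-/- kidneys above all 4 wild type kidneys. Of the 8 members, 1 was called higher there, where 0.598% of all tested genes were. Over all alternatives the adjusted p ran from 2.2e-04 to 0.0796. The call was lost without replicate 1 (0.90, adjusted p = 0.0706) or replicate 3 (0.91, adjusted p = 0.0796) of the miR-155-/- group at 72 h, the 2 kidneys with a Vim level of 2.24. Within each of the 3 slides that hold both groups, as 1 array against 1, the difference was 1.33, 1.50 and 0.62. Its sign there was fixed by the lack of overlap.

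The 7 keratins were also higher in miR-155-/- than in wild type kidneys at 72 h, but none passed the test. The difference was 0.79 ± 0.26 for Krt8 (adjusted p = 0.178), 0.97 ± 0.42 for Krt18 (0.355), 0.44 ± 0.14 for Krt7 (0.160) and 0.76 ± 0.53 for Krt19 (0.674). It was 1.40 ± 0.66 for Krt20 (0.439), 1.48 ± 1.02 for Krt12 (0.671) and 1.68 ± 0.67 for Krt76 (0.302). The 4 miR-155-/- kidneys lay above the 4 wild type kidneys for 7 of the 8 members, all but Krt7, where 6.04% of all tested genes did so. For Krt12 this held by the brighter probe only. By the dimmer probe the 72 h levels were -6.96 to -5.28 in miR-155-/- and -8.18 to -6.25 in wild type kidneys, which overlap. The median difference over the 8 was 1.0, against -0.04 over all tested genes, and 6 of the 8 had an unadjusted p under 0.05, where 10.9% of all tested genes had one. The 8 were chosen with earlier results of these data known, and several correlated strongly over the same mice. These counts are thus a description and not independent pieces of evidence. All 8 were higher in miR-155-/- kidneys within each of the 3 shared slides, as 1 array against 1, and on both scan days. For the 7 members without overlap this direction was fixed by the lack of overlap, so it is no separate check on batch. The count of calls differed between fits, and the reason was not tested. It was 6 with only the 2 compared groups in the fit (Krt8, Krt12, Krt18, Krt20, Krt76 and Vim), 5 with array weights, and 3 without the 2 arrays highest on the first principal component (Krt7, Krt8 and Vim). The shares of all tested genes called under these fits are not given here, so nothing is read from these counts.

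At the earlier times no member passed the test between genotypes. In saline kidneys the 6 members other than Krt12 and Krt76 had negative differences, with Krt19 at -1.15 ± 0.53 (unadjusted p = 0.0376). For Krt20 and Krt7 the sign was not steady, since over the alternatives they ran from -0.54 to 0.44 and from -0.12 to 0.05. Of these 6, 1 had an unadjusted p under 0.05, where 3.32% of all tested genes had one. At 24 h the difference was 2.25 ± 1.02 for Krt12 (adjusted p = 0.532) and 1.90 ± 0.67 for Krt76 (0.504), and these came to 1.01 for Krt12 and 1.27 for Krt76 without replicate 3 of the miR-155-/- group. At 48 h all 8 were higher in miR-155-/- kidneys, led by Krt76 at 2.22 ± 0.67 (adjusted p = 0.285), whose groups alone did not overlap, where 2.56% of all tested genes were higher without overlap. Without replicate 3 of the miR-155-/- group the 48 h difference came to 1.54 for Krt76, and to 0.72, from 1.75, for Krt12. On 1 of the 2 scan days the 48 h difference was -0.27 for Krt18, -0.48 for Krt19 and -0.06 for Vim, so the common direction at 48 h did not hold within both days. The share of all genes called between genotypes was 0.114%, 0.0800% and 0.101% at 0, 24 and 48 h. An unadjusted p under 0.05 was found for 3 of the 8 at 24 h and 3 at 48 h, beside 9.31% and 15.1% of all tested genes.

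**Figure D3:**
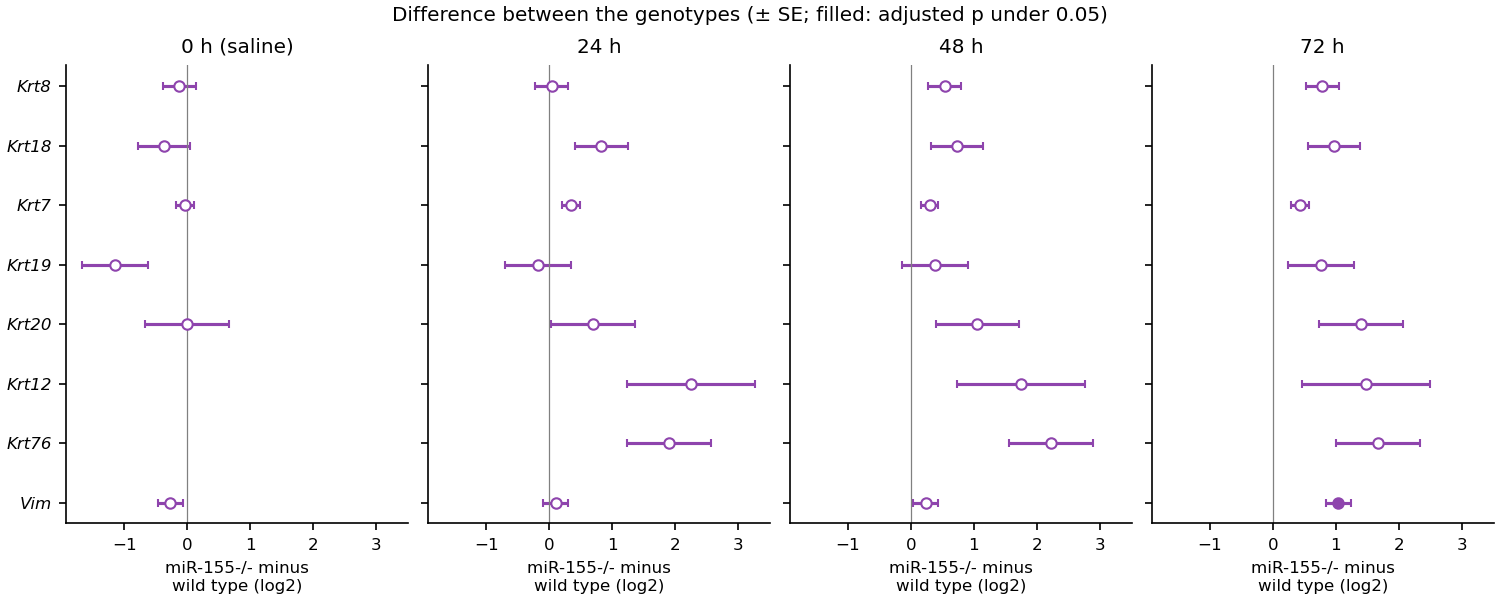
Difference between miR-155-/- and wild type kidneys (log2, x axis) for the 8 genes at 0 h (saline), 24, 48 and 72 h; error bars are SE of the fit with 4 arrays per group, and a filled point has an adjusted p under 0.05. Krt12 and Krt76 are left out at 0 h, where their probes were not well above background on most or all arrays. All 8 points lie above 0 at 48 and 72 h, and the filled point is Vim at 72 h.

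The test of whether cisplatin shifted a gene differently in the genotypes (the response in miR-155-/- kidneys minus that in wild type kidneys) called Vim among the 8 members, at 72 h. Its value there was 1.31 ± 0.28 (adjusted p = 0.0435), made of a difference from saline of 0.97 in miR-155-/- and -0.33 in wild type kidneys. Vim was 1 of 8 called, where 0.173% of all tested genes were called in this direction. The call sat near the threshold, with an adjusted p of 0.0669 when replicate number was a block, 0.140 with normexp, 0.054 without the filter on dim probes and 0.056 with scan day as a block, and it was lost in 12 of 16 fits that left out 1 kidney (adjusted p 0.0091 to 0.151). At 72 h the keratin values were 1.91 ± 0.74 for Krt19 (adjusted p = 0.452), 1.33 ± 0.59 for Krt18 (0.556), 0.92 ± 0.37 for Krt8 (0.481) and 0.47 ± 0.20 for Krt7 (0.511). For Krt20 it was 1.40 ± 0.94, with a 95% interval of -0.52 to 3.33. No value is given for Krt12 and Krt76, since it would rest on saline arrays that did not measure them. At 24 and 48 h limma called 0 of all tested genes (0%) in this test, and 0 and 1 of the other 6 members had an unadjusted p under 0.05, beside 784 and 1701 of all tested genes.

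Between times after cisplatin, Krt19 was the member that limma called. It was 1.80 ± 0.53 (3.48-fold) higher at 72 h than at 24 h in miR-155-/- kidneys (adjusted p = 0.0096), with no overlap between the times. In that comparison 13.6% of all tested genes were called higher and 10.8% were higher without overlap, so 1 of the 8 is near the share of all tested genes. In wild type kidneys the step of Krt19 was 0.85 ± 0.53 (adjusted p = 0.259). The difference of Krt76 between 72 and 48 h was -1.60 ± 0.67 in miR-155-/- kidneys (adjusted p = 0.149; -0.92 without replicate 3 at 48 h) and -1.06 ± 0.67 in wild type kidneys (adjusted p = 0.834). The widest step of Krt20 between neighbouring times after cisplatin was -0.59 ± 0.66 and that of Krt12 was 1.08 ± 1.02, both in wild type kidneys, and neither was called. Limma called 0 of the 8 members in the other 5 comparisons between times, and the shares of all tested genes called in either direction were 4.01% (48 h against 24 h), 6.25% (72 h against 48 h) and 31.9% (72 h against 24 h) in miR-155-/- and 13.1%, 0.868% and 26.6% in wild type kidneys. At an unadjusted p under 0.05 there were 0, 1 and 2 of the 8 in miR-155-/- and 0, 0 and 1 in wild type kidneys. The shares of all tested genes were 17.7%, 22.2% and 40.9% in miR-155-/- and 25.6%, 8.10% and 36.3% in wild type kidneys. Between 24 and 72 h, Vim differed by 0.47 ± 0.20 in miR-155-/- kidneys (adjusted p = 0.0707) and -0.46 ± 0.20 in wild type kidneys (adjusted p = 0.0901). Without the 2 arrays highest on the first principal component, Krt18 (1.0) and Vim (0.62) were called beside Krt19 (2.20) in the miR-155-/- comparison.

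Most of the other keratins on the array did not pass the test after cisplatin. Counts for the lists that follow stand beside the shares of all tested genes called higher, given above, and those called lower, which were 22.5%, 21.1% and 17.5% at 24, 48 and 72 h in miR-155-/- kidneys and 17.6%, 11.6% and 12.8% in wild type kidneys. Of 13 tested other type I keratins, 3, 4 and 4 rose and 3, 1 and 1 fell at 24, 48 and 72 h in miR-155-/- kidneys, and 1, 1 and 0 rose and 1, 0 and 1 fell in wild type kidneys. Their median difference at 72 h was 0.23 in miR-155-/- and 0.11 in wild type kidneys, against -0.02 and 0.03 over all tested genes. Krt42 rose by 2.05 ± 0.42 at 72 h in miR-155-/- kidneys (adjusted p = 0.00030), and Krt13, a keratin of internal stratified epithelia, by 1.67 ± 0.40 (0.0017). Krt10, a keratin of the upper skin layers, fell by 0.75 ± 0.17 in miR-155-/- (adjusted p = 0.0012) and by 0.57 ± 0.17 in wild type kidneys (0.017). Of 11 tested other type II keratins, 3, 2 and 3 rose in miR-155-/- kidneys and 1, 1 and 1 in wild type kidneys, and none fell. Krt5, the basal cell keratin, rose by 3.14 ± 0.54 at 48 h in miR-155-/- kidneys (8.79-fold, adjusted p = 4.4e-05). Its level there averaged 0.10, with single kidneys from -0.60 to 1.87, against a mean of -3.03 in saline. Wild type means were -1.01 at 48 h and -1.72 in saline. None of these 24 genes passed the test between genotypes at any time.

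Among 14 tested genes of other intermediate filaments, 6, 8 and 7 rose in miR-155-/- kidneys at 24, 48 and 72 h and 5, 5 and 4 in wild type kidneys. In the same order of times, 2, 0 and 0 fell in miR-155-/- kidneys and 3, 2 and 3 in wild type kidneys. Lmna, which encodes lamins A and C of the nuclear envelope, rose by 1.99 ± 0.16 at 24 h in miR-155-/- kidneys (3.98-fold, adjusted p = 1.6e-10) and by 1.80 ± 0.16 in wild type kidneys (8.0e-10). Synm, encoding synemin, rose by 1.89 ± 0.23 in miR-155-/- and 1.59 ± 0.23 in wild type kidneys at 24 h. Nefh, the heavy neurofilament chain, rose by 3.94 ± 0.50 in miR-155-/- and 3.08 ± 0.50 in wild type kidneys at 24 h. Lmnb1, encoding lamin B1, differed between genotypes in both directions: it was lower in miR-155-/- saline kidneys (-0.57 ± 0.11, adjusted p = 0.023) and higher at 72 h (0.48 ± 0.11, adjusted p = 0.033), and its response differed by 1.05 ± 0.16 at 72 h (adjusted p = 0.0029).

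Genes that anchor filaments were called in both directions, as were all tested genes. Of 18 tested linker and desmosome genes, 5, 7 and 8 rose and 6, 4 and 4 fell in miR-155-/- kidneys at 24, 48 and 72 h, and 6, 5 and 5 rose and 6, 3 and 3 fell in wild type kidneys. Perp, a p53 target gene of desmosomes, rose by 1.29 ± 0.14 at 24 h in miR-155-/- and 1.15 ± 0.14 in wild type kidneys. Plec, encoding the linker plectin, rose by 1.14 ± 0.16 at 24 h in miR-155-/- kidneys, and Eppk1, encoding epiplakin, which binds keratin filaments, rose by 1.76 ± 0.19 at 72 h in miR-155-/- and 1.48 ± 0.19 in wild type kidneys. Pkp4, encoding plakophilin 4, fell by 1.45 ± 0.18 in miR-155-/- and 1.31 ± 0.18 in wild type kidneys at 24 h. Of 14 epithelial junction genes, 6 rose and 2 fell at 72 h in miR-155-/- kidneys, and 5 rose and 1 fell in wild type kidneys. Their summed signal, of which Cdh16 made up 60.7%, lay below saline at each time in both genotypes. At 24 h it was 8759 to 9638% of the array's 75th percentile in miR-155-/- kidneys, against 12434 to 15442% in saline. The wild type ranges were 7736 to 8506% and 12594 to 15423%. The tight junction gene Cldn4 rose by 3.25 ± 0.47 in miR-155-/- (9.54-fold) and 2.04 ± 0.47 (4.12-fold) in wild type kidneys at 72 h. No gene of these 2 lists passed the test between genotypes.

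The mesenchymal genes that are often read beside vimentin mostly fell or did not pass. Of 15, 1, 2 and 3 rose and 7, 2 and 2 fell at 24, 48 and 72 h in miR-155-/- kidneys, and 0 rose and 5, 1 and 6 fell in wild type kidneys. Acta2, smooth muscle actin, fell by 1.11 ± 0.28 at 72 h in wild type kidneys (adjusted p = 0.0041), and Cdh2, encoding N-cadherin, by 1.51 ± 0.34 at 24 h in miR-155-/- kidneys (adjusted p = 5.2e-04). Between genotypes at 72 h, 3 of the 15 were higher in miR-155-/- kidneys: S100a4, a calcium-binding protein of fibroblasts and leukocytes, by 1.08 ± 0.18 (adjusted p = 0.0017), Ccn2, the connective tissue growth factor, by 1.55 ± 0.31 (0.012), and Tgfb1, a fibrogenic cytokine, by 0.78 ± 0.18 (0.038). The median of the 15 was 0.44. S100a4 also passed the test of the response at 72 h, at 1.59 ± 0.25 (adjusted p = 0.0029).

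Markers of other cells were summed beside these results. The summed signal of 10 urothelium markers was 988 to 1412% of the array's 75th percentile in miR-155-/- kidneys and 607 to 689% in wild type kidneys at 72 h, and 489.9 to 766% and 498 to 1322% in the saline kidneys of these genotypes. Sprr1a, a cornified envelope gene on that list, made up 34.4% of the mean sum, and without it the ranges at 72 h were 348.5 to 694% in miR-155-/- and 348.4 to 527% in wild type kidneys, which overlap. None of the 11 urothelium genes on the list passed the test between genotypes, and the differences of the uroplakins, which define that lining, were 0.37 (Upk1a), 0.51 (Upk1b), 0.57 (Upk2), 0.09 (Upk3a) and -0.11 (Upk3b). Sprr1a rose by 4.68 ± 0.50 in miR-155-/- and 2.12 ± 0.50 in wild type kidneys at 72 h. The sum of 12 fibroblast and smooth muscle markers was 906 to 1749% in miR-155-/- and 602 to 977% in wild type kidneys at 72 h, and that of 10 macrophage markers was 1515 to 1959% and 1191 to 1648%, so both overlapped. The sum of 14 tubular injury markers was 44601 to 65270% in miR-155-/- and 25146 to 39938% in wild type kidneys, and that of 11 proximal tubule markers was 32686 to 40388% and 43372 to 50261%, neither with overlap. All summed markers of these lists were well above background on at least 1 array, and their part in the keratin and vimentin differences was not tested.

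**Figure D4:**
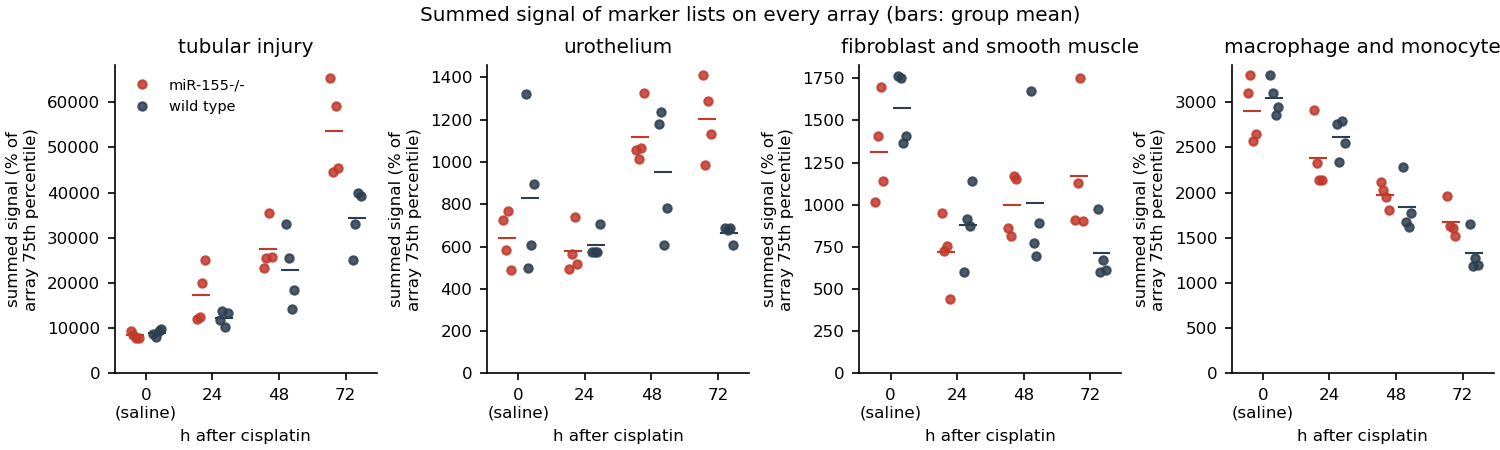
Summed signal of 4 marker lists on each array (percent of the array's 75th percentile, y axis from 0) against hours after cisplatin, with miR-155-/- in red and wild type in blue; points are single animals and bars are group means of 4. At 72 h the miR-155-/- kidneys lie above the wild type kidneys for tubular injury and for urothelium (Sprr1a included) and overlap them for fibroblasts and macrophages.

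The 8 genes fell along a range of likeness to each other. Over the 32 arrays Krt12, Krt20 and Krt76 correlated at 0.948 to 0.959 with each other and at 0.919 to 0.937 with Krt8. Over the 24 treated arrays these values were 0.901 to 0.931 and 0.782 to 0.895. Krt18 correlated over 32 arrays at 0.828 with Krt19 and at 0.760 to 0.848 with Krt8, Krt12, Krt20 and Krt76. Over the treated arrays these values were 0.752 and 0.728 to 0.873. No value of Krt7 passed 0.691 and none of Vim passed 0.662. These are descriptions over arrays that share 8 groups, in which saline and treated kidneys form separate clusters, and the saline levels of Krt12 and Krt76 are mostly not well above background. Among all named genes, the most like Krt20 were Fosl1 (0.983), Tac1 (0.982) and Atf3 (0.975), and the most like Krt12 were Plaur (0.979), Ifrd1 (0.977) and Akr1b8 (0.971). Krt76 was nearest to Cst6 (0.985), Pnp2 (0.984) and Acbd7 (0.979), Krt8 to Tgif1 (0.972), Hmga1 (0.970) and Eif6 (0.968), and Krt18 to Cldn7 (0.960), Klf5 (0.942) and Gprc5a (0.937). Krt19 was nearest to Krt42 (0.960, and 0.982 over the treated arrays), then to Grhl1 (0.881) and Upk3bl (0.875). Krt19 and Krt42 are related type I keratin genes, and cross-hybridisation between their probes was not tested. Krt7 was near to Sowahc (0.769) and Lrfn4 (0.765), and Vim was nearest to Flna (0.832), S100a4 (0.828) and Pkmyt1 (0.818).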

How the data were processed

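Kidney RNA was measured on 32 Agilent 4x44k version 2 mouse arrays with 1 dye, 1 animal per array. Per the file headers, the scans were read with Feature Extraction 10.7.3.1, and the deposited intensity used here is its background-subtracted processed signal. The authors' deposited value table also holds a linear intensity, the processed signal times 1 factor per array (75th percentile 999.3 to 1000), and served as an alternative. Files without gene symbols were named through transcript accessions with a RefSeq table of GRCm38.p6 (1 symbol for 27234 of 39429 probes, 69.1%). Here the signal was taken to log2 minus the 75th percentile of each array (1531 to 2647 in intensity units), leaving out outlier spots (59 to 976 per array). Tested genes had a brightest probe detected well above background on each of the 4 arrays of some group, and 3 or more values per group. Limma 3.58.1 in R 4.3.3 (eBayes with trend) compared the groups as 8 group means over all arrays, 2-sided, with Benjamini-Hochberg adjustment over 23737 genes within each of 19 comparisons and calls at 0.05. The fit was tested on simulated data. A ± after a level is an SD over 4 arrays and after a difference the SE of the fit. The members, the gene lists and the tests were chosen with earlier results of these data known. The text names the 8 members, Havcr1 and Lcn2, up to 3 called genes per list by adjusted p, and the 3 genes most like each member, 1 of which is not reported here. Uroplakins and some list genes were named after their values were seen. The arrays limit precision by their number, 4 per group. Alternatives were normexp on median signals, quantile normalization, no dim filter, mean of probes, the authors' table, array weights, compared groups only, blocks for slide, replicate number and scan day, and leaving out arrays. The files used here held no mean signal column, so normexp started from median signals.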

Additional observations from a re-analysis of the deposited data

Results flagged for a closer look

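Krt12 in the miR-155-/- saline group had a level of -6.67 in replicate 3, while the other 3 kidneys lay between -9.78 and -9.55, and this gap passed Dixon's 95% limit. Replicate 3 of the miR-155-/- group at 48 h stood out in the same way for Krt12 (1.09, others -3.33 to -2.69) and for Krt76 (-0.54, others -3.53 to -3.11). In all, 64 groups of 4 arrays were checked and 3 passed the limit, and chance alone gives about 1 in 20.

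The cisplatin response of Vim at 72 h differed between genotypes by 1.31 in the test of that difference. All 4 miR-155-/- kidneys at 72 h lay above the saline mean (difference 0.97) and all 4 wild type kidneys below theirs (-0.33). Between 24 and 72 h Vim also ran in opposite directions, with a difference of 0.47 in miR-155-/- and -0.46 in wild type kidneys. Krt8 did so as well, with 0.31 in miR-155-/- and -0.43 in wild type kidneys. These differences between genotypes from 24 to 72 h were not tested.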

How the results depend on the processing

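The table of alternatives held 1672 single-gene results from other settings, of which 1620 kept their side of the threshold, 22 lost their call and 30 gained one. In 32 of the 1672 the sign changed while the gene was not called. Of 1408 that left out 1 kidney, 1376 kept their side of the threshold, 28 lost a call and 4 gained one, and 60 changed sign while not called. No called value changed sign. Under normexp the wild type count of members called after cisplatin was 2 at 24, 48 and 72 h (Krt8 and Krt20). For 72 h against 24 h in miR-155-/- kidneys the count, 1, became 2 with quantile normalization, 3 with array weights and 3 without the 2 arrays highest on the first principal component. For the same times in wild type kidneys, 0 became 1 with slide as a block, 2 with only the compared groups and 2 with array weights. Between genotypes at 72 h the count, 1, became 6 with only the compared groups, 5 with array weights and 3 without the 2 arrays. For the difference in response at 72 h the count, 1, became 0 with normexp, without the dim filter, with the replicate block and with scan day as a block, 3 with only the compared groups and 5 with array weights. Leaving out each kidney gave counts of 6 to 7, 6 to 7 and 7 to 8 after cisplatin in miR-155-/- kidneys at 24, 48 and 72 h and 4 in wild type kidneys, 1 to 2 and 0 to 1 for 72 h against 24 h in miR-155-/- and wild type kidneys, and 0 to 1 for both genotype tests at 72 h. The causes were not tested, and the shares of all tested genes called under each alternative are not given here. Replicate numbers did not pair the samples: in no comparison did all 4 same-numbered pairs correlate above 0.1, and the replicate block, which took the Vim response at 72 h to an adjusted p of 0.0669, changed no other count by over 1.5 times. Within slides and scan days, 348 of 472 differences stayed within 1 SD of the pooled ones. Of the 472, 69 changed sign, none of them called in the pooled fit. Arrays give no counts; Krt12 and Krt76 in saline kidneys limit the comparison with saline to bounds.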
